A study of Homo sapiens with 6 samples.

Results

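The 53 genes described here are interferon-stimulated genes and the cytosolic RNA sensors that act upstream of them, taken from the expression table by gene symbol. All 53 were found among the 58735 genes of the table, and gene coordinates are given on GRCh38. Their levels were compared between Hep3B cells with an shRNA against HYOU1 and Hep3B cells with a control shRNA, 3 libraries each. Hep3B is a human hepatocellular carcinoma line, and an shRNA is a short hairpin RNA that directs degradation of a matching mRNA. HYOU1 encodes a chaperone of the endoplasmic reticulum related to the HSP70 proteins. The labels give no other agent, and they do not say how the hairpins were delivered, how many hairpin sequences were used, at what time the cells were taken or whether replicates came from separate cultures. The p-values are based on the spread among the libraries, part or all of which may be technical.

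Cells detect viral or misplaced RNA in the cytosol with the helicases RIG-I (encoded by DDX58) and MDA5 (encoded by IFIH1). Both pass the signal to the mitochondrial adaptor MAVS, kinases then activate the transcription factors IRF3, IRF7 and NF-kB, and type I and type III interferons are made. Secreted interferon binds receptors that activate JAK kinases, and a complex that includes STAT2 and IRF9 then binds the interferon-stimulated response element (ISRE) in the promoters of antiviral genes. Some of these genes are also direct targets of IRF3 and related factors. Many of the sensors are themselves interferon-stimulated.

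In the control libraries, in the order of replicates 1, 2 and 3 that is kept throughout, HYOU1 was measured at 37.6, 58.2 and 59.5 FPKM. FPKM is a fragment count scaled by gene length and by a total for each library. With HYOU1 shRNA it was at 2.35, 2.32 and 2.37 FPKM. The groups did not overlap, and the log2 difference was -4.38 (adjusted p 0.00119). The libraries held between 16893091 and 18233240 fragments, recovered from the table. The total behind the FPKM values was not this sum: it lay above it in control replicate 2 and below it in HYOU1 shRNA replicate 3. A count of 3 fragments in a gene of 1 kb was worth 0.160 to 0.176 FPKM, a floor that covers counting error only. Of 9 hepatocyte markers 1, HNF4A, reached a mean of 1 FPKM, and ALB, APOA2 and TTR were listed at 0 in every library. Over the 3 libraries of a group, AFP had 1 fragment in the control and 2 with HYOU1 shRNA. APOA1 had 0 and 2, and TF 3 and 3. ALB, APOA2, TTR, AFP, APOA1 and TF were thus at or near 0 in cells labelled Hep3B. The identity of the line was not tested. Fragments over the 3 libraries of a group numbered 195 in the control and 22 with HYOU1 shRNA for FGB and 23 and 126 for SERPINA1, both without overlap. The summed level of the 9 was 2.61 to 3.43 FPKM in the control and 1.86 to 2.20 FPKM with HYOU1 shRNA, and its part in the results below was not tested. Of 18 immune cell markers none reached a mean of 1 FPKM and 9 were listed at 0 in every library, PTPRC among them. Their summed level was 0.107 to 0.942 FPKM in the control and 0.975 to 1.21 FPKM in the HYOU1 shRNA libraries. In group totals, control first, MARCO had 6 and 59 fragments, LAPTM5 17 and 44 and CSF1R 6 and 20, each without overlap. CD14 had 27 and 12, CD79A 5 and 2 and CD3D 1 and 0, each with overlap. The part of these markers was likewise not tested. Mitochondrial transcripts took 7.59%, 5.17% and 4.96% of the fragments in control replicates 1, 2 and 3 and 3.39% to 3.84% with HYOU1 shRNA.

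Promoter sequences show what many of these genes have in common besides their names. RefSeq promoter windows on GRCh38.p14, from 250 bases before to 50 bases after a transcript start, were matched by symbol or synonym for 41 of the 53 members (55 windows). The ISRE core was searched as a pair of TTTC separated by any 2 bases or, on the other strand, a pair of GAAA with the same spacing. At least 1 match stood in 25 of the 41 members (61.0%), against 4.38% of the 27305 genes with a window (3.57% of 35116 windows). Matches of different motifs may overlap. A match is a description of letters, not a measured site. The GAS element, best known from interferon-gamma and searched as TTCNNNGAA, was found in 10 of 41 members (24.4%) and in 9.38% of all genes. An NF-kB motif, searched as GGGA and TTCC separated by any 2 bases (GGAA and TCCC on the other strand), was found in 3 members, DDX58, IFIH1 and OAS3 (7.32%), and in 1.97% of all genes. Of the members that rose in the comparison below, 7 have a window and 6 of these hold the ISRE core. The share was 15 of 25 for members tested and not called, and 4 of 9 for members below the filter on low levels.

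Windows of 5 members are printed 5′ to 3′ on the strand of the gene, because they span the outcomes described below: ISG15, IFI44 and DDX58 rose, BST2 was abundant in both groups, and RSAD2 was near 0. Capitals mark the ISRE core as searched, except in DDX58, which holds no such match and where they mark the NF-kB motif. The DDX58 window does hold a pair of GAAA separated by a single base, a spacing that the search did not cover.
ISG15, chr1:1013247-1013546, plus strand: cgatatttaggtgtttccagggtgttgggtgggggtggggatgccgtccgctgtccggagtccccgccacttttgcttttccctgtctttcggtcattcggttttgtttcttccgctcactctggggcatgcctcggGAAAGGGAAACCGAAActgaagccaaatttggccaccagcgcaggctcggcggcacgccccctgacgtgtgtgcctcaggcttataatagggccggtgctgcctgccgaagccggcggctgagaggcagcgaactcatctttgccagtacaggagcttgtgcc
IFI44, chr1:78649581-78649880, plus strand: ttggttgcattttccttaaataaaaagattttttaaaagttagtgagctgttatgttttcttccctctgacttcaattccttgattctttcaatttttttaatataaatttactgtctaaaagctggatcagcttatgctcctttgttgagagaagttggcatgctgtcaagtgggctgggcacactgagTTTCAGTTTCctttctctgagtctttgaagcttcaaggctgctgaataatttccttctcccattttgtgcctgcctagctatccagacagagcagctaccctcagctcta
DDX58, chr9:32526147-32526446, minus strand: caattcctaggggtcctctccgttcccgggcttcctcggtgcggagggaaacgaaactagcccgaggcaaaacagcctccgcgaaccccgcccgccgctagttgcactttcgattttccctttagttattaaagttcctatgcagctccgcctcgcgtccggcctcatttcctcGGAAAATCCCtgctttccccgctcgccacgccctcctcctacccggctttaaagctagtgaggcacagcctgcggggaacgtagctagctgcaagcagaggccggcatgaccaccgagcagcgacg
BST2, chr19:17405581-17405880, minus strand: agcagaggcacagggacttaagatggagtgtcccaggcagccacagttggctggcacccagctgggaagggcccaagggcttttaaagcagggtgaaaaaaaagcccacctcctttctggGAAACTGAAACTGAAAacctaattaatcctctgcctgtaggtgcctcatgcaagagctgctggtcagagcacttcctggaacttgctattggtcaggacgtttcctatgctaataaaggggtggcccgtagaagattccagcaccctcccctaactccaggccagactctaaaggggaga
RSAD2, chr2:6877527-6877826, plus strand: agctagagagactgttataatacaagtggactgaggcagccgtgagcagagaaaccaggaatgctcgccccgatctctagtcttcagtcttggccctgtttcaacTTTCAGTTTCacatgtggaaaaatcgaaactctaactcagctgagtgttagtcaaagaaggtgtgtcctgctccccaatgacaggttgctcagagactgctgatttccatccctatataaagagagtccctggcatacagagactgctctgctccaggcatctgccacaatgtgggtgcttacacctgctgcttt
In ISG15, 2 overlapping cores begin at -113 and -107 from the transcript start (GAAAGGGAAA and GAAACCGAAA). BST2, at over 100 FPKM in every library, carries the same arrangement at -130 and -124 (GAAACTGAAA at both). IFI44 and RSAD2 share the core TTTCAGTTTC, at -60 and -145 in these windows, although IFI44 rose with HYOU1 shRNA and RSAD2 had 2 fragments in all 6 libraries. Members with the core were thus found among the most abundant, among those that rose and among the nearly silent.

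Interferon-stimulated genes were higher in the HYOU1 shRNA libraries for a subset of the list, and none was called lower. Of the 53 members, 40 averaged 1 FPKM or more and were tested among 12448 genes, and 13 lay below that filter. With limma on log2(FPKM + 0.1), 11 of the 40 rose at a Benjamini-Hochberg adjusted p under 0.05 (27.5%), 0 fell and 29 were not called. Over all tested genes 12.3% were called, 6.6% rose and 5.66% fell. In bulk RNA a change in some cells and a smaller change in every cell cannot be told apart. The 11 were OASL, IFITM1, ISG15, DDX58, IFI44, USP18, LGALS3BP, IFIT2, IRF2, TRIM21 and HERC5. At an unadjusted p under 0.05 the counts were 19 higher and 2 lower, beside 17% and 14.6% of all tested genes. Run on the recovered fragments, voom called 12 higher (IFIH1 in addition) and 1 lower (PARP9), where 7.91% of all tested genes rose and 6.6% fell. The median log2 difference of the 40 members was 0.40, beside 0.035 for all tested genes. In 22 members every HYOU1 shRNA library lay above every control library (55%), in 4 every one lay below (10%), and 14 overlapped. The shares over all tested genes were 23.8% above and 20.6% below. IFIH1 and ISG20 passed the filter only through the HYOU1 shRNA libraries, since their control means were under 1 FPKM.

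The number called depended on single libraries, for these members as for all genes. Without control replicate 1 the members held 23 rises and 5 falls, and 24.6% of all tested genes rose and 19.7% fell. Without control replicate 2 there were 4 rises (1.65% of all tested genes) and without control replicate 3 there were 8 (4.77%). Leaving out HYOU1 shRNA replicate 1, 2 or 3 left 2, 1 and 1, with 0.434%, 0.305% and 0.177% of all tested genes called higher. OASL was called in all of these fits.

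**Figure D1:**
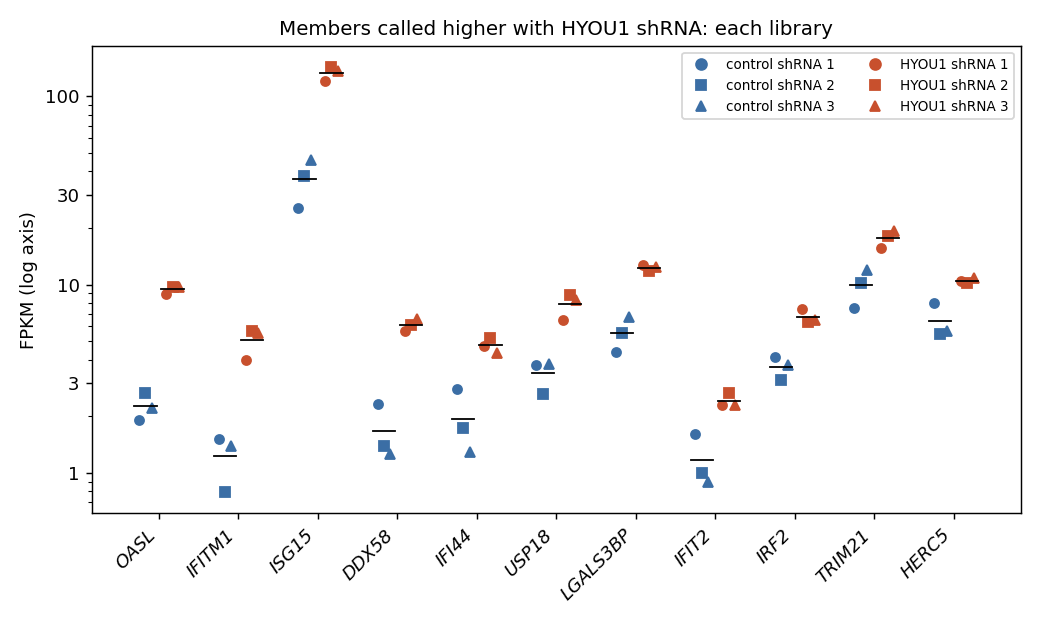
FPKM of the 11 called members on a log axis, with 1 colour for each group and 1 marker shape for each replicate. For every gene the 3 HYOU1 shRNA libraries lie above the 3 control libraries; ISG15 is the most abundant and IFIT2 the least.

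Among the sensors, DDX58 rose, DHX58 was low, and IFIH1 and MAVS were not called. DDX58 (ENSG00000107201, chr9:32455705-32526324) encodes RIG-I, which binds short double-stranded RNA. It was at 2.31, 1.40 and 1.27 FPKM in the control libraries and at 5.65, 6.14 and 6.54 FPKM with HYOU1 shRNA. Every HYOU1 shRNA library lay above every control library, and control replicate 1 was the highest control. The log2 difference was 1.86 (SE 0.238, adjusted p 0.00966). It was not called without HYOU1 shRNA replicate 1, 2 or 3 (adjusted p 0.0616, 0.0717 and 0.0716), with log2 differences of 1.81 to 1.92.

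IFIH1 encodes MDA5, which binds long double-stranded RNA. Its levels were 1.17, 0.742 and 0.753 FPKM in the control and 1.52, 2.18 and 1.79 FPKM with HYOU1 shRNA, without overlap. The log2 difference of 0.98 missed the threshold (adjusted p 0.0561), and it passed without control replicate 1 (1.17, adjusted p 0.00263). MAVS, the adaptor below both helicases, was the most abundant of the sensor group at 8.17, 11.5 and 11.5 FPKM in the control and 7.98, 8.71 and 9.06 FPKM with HYOU1 shRNA. Control replicate 1 lay among the HYOU1 shRNA libraries, and the other control libraries lay above them. MAVS was not called (-0.26, adjusted p 0.337), and without control replicate 1 it was called lower (-0.42, adjusted p 0.00366). DHX58 encodes LGP2, a helicase of the same family without a signalling domain. It had 2, 6 and 6 fragments in the control libraries and 17, 32 and 31 with HYOU1 shRNA, all above the controls. With the filter lowered to 0.1 FPKM its log2 difference was 1.53 (adjusted p 0.0762), so DHX58 was not called.

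Of the transcription factors, IRF2 rose and STAT2, IRF1, IRF3 and IRF7 were not called. IRF2 (ENSG00000168310, chr4:184387713-184474580) binds the same elements as IRF1 and is best known as its antagonist. Its levels were 4.12, 3.13 and 3.74 FPKM in the control and 7.44, 6.34 and 6.46 FPKM with HYOU1 shRNA, without overlap. Its log2 difference was 0.87 (SE 0.153, adjusted p 0.0191). The call was lost without control replicate 2 (adjusted p 0.0684) and without HYOU1 shRNA replicate 1, 2 or 3 (0.112, 0.0926 and 0.102).

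IRF3, the factor that RIG-I signalling activates first, was the most abundant of this group. It was at 7.94, 15.0 and 16.6 FPKM in the control and 17.4, 20.4 and 21.0 FPKM with HYOU1 shRNA, and control replicate 1 stood far below the rest. IRF3 was not called (0.63, adjusted p 0.181), and it was called higher without control replicate 1 (0.31, adjusted p 0.0293). A share of 19.4% of its exon bases overlaps BCL2L12 on the opposite strand, which averaged 10.9 FPKM in the control and 16.4 FPKM with HYOU1 shRNA, and the labels name no step that keeps strand. IRF7, the factor that amplifies interferon output, was at 4.84, 10.2 and 10.9 FPKM in the control and 10.6, 9.28 and 11.3 FPKM with HYOU1 shRNA, with overlap. STAT2, a subunit of the ISRE-binding complex, differed by 0.02 (adjusted p 0.947), and its groups overlapped. IRF1 was at 1.19, 1.25 and 1.76 FPKM in the control and 1.88, 1.88 and 1.84 FPKM with HYOU1 shRNA, without overlap, and was not called (adjusted p 0.213). IRF9, the DNA-binding subunit of that complex, was below the filter with 7, 20 and 18 fragments in the control and 17, 25 and 33 with HYOU1 shRNA, and shares 48.4% of its exon bases with a gene on the same strand.

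OASL rose, and OAS1 and OAS3 were not called. They belong to the oligoadenylate synthetase family, whose enzymes make the second messenger of RNase L when they bind double-stranded RNA. OASL (ENSG00000135114, chr12:121019111-121039242) itself lacks that activity and is known to enhance RIG-I signalling. It was at 1.90, 2.66 and 2.22 FPKM in the control and 8.94, 9.74 and 9.70 FPKM with HYOU1 shRNA. The groups lay far apart and the libraries within each were close. The log2 difference was 2.03 (SE 0.157, adjusted p 0.00289), and the call was kept in each of the 6 fits that left out 1 library (1.92 to 2.15).

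The genes of the active synthetases lie next to each other on chromosome 12. OAS3 was at 18.6, 19.2 and 19.8 FPKM in the control and 23.9, 22.8 and 24.9 FPKM with HYOU1 shRNA, and OAS1 at 10.2, 11.5 and 11.6 and 13.5, 13.4 and 14.5 FPKM. Neither overlapped between the groups and neither was called (adjusted p 0.10 and 0.118). Both were called higher without control replicate 1, OAS3 at 0.29 (adjusted p 0.00813) and OAS1 at 0.26 (adjusted p 0.0167). OAS2, 5146 bases beyond OAS3, was nearly silent, with 6, 4 and 2 fragments in the control and 10, 19 and 7 with HYOU1 shRNA.

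Of the genes that attach ISG15 to proteins or remove it, 4 were tested. ISG15, HERC5 and USP18, 3 of the 4, were called higher, beside 6.6% of all tested genes. ISG15 (ENSG00000187608, chr1:1001138-1014540) encodes the ubiquitin-like modifier. It was at 25.7, 37.6 and 46.0 FPKM in the control and 120.3, 143 and 136 FPKM with HYOU1 shRNA, the highest level among the members that rose. The groups did not overlap, with control replicate 1 lowest. On the log2 scale the difference was 1.90 (SE 0.221, adjusted p 0.00757), and the call was lost without HYOU1 shRNA replicate 2 or 3 (adjusted p 0.0614 and 0.0571).

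USP18 (ENSG00000184979, chr22:18149899-18177397) removes ISG15 from its targets and dampens the type I interferon receptor. It was at 3.74, 2.63 and 3.77 FPKM in the control and 6.51, 8.77 and 8.30 FPKM with HYOU1 shRNA, without overlap. USP18 differed by 1.2 on the log2 scale (SE 0.198, adjusted p 0.0168), and the call was lost without control replicate 2 (adjusted p 0.0538) or HYOU1 shRNA replicate 1, 2 or 3 (0.0706, 0.0961 and 0.0991). HERC5 (ENSG00000138646, chr4:88457117-88506163) is the main ligase for ISG15. It was at 8.01, 5.48 and 5.68 FPKM in the control and 10.4, 10.3 and 10.8 FPKM with HYOU1 shRNA, without overlap, and control replicate 1 was the nearest control. Its log2 difference was 0.73 (SE 0.171, adjusted p 0.0413). HERC5 kept its call only when control replicate 1 was the library left out; without control replicate 2 or 3 the adjusted p was 0.115 and 0.0881, and without a HYOU1 shRNA library it was 0.151 to 0.169.

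HERC6, which lies beside HERC5 on chromosome 4, was at 1.90, 0.802 and 1.07 FPKM in the control and 1.76, 1.59 and 1.61 FPKM with HYOU1 shRNA. Control replicate 1 lay above all 3 HYOU1 shRNA libraries and the other controls below them. HERC6 was not called (adjusted p 0.363), and was called higher without control replicate 1 (0.77, adjusted p 0.0133). UBE2L6, the conjugating enzyme between the ISG15-activating enzyme and HERC5, had 9, 8 and 0 fragments in the control and 2, 7 and 2 with HYOU1 shRNA.

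IFIT2 rose among the 4 IFIT genes, which encode RNA-binding proteins that block translation of viral RNA and lie side by side on chromosome 10. IFIT2 (ENSG00000119922, chr10:89283694-89309276) was at 1.61, 1.00 and 0.897 FPKM in the control and 2.29, 2.67 and 2.29 FPKM with HYOU1 shRNA, without overlap. That is a log2 difference of 1.02 (SE 0.245, adjusted p 0.0436). The call was kept without control replicate 1 and lost without any other single library (adjusted p 0.084 to 0.175).

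IFIT1 binds RNA that lacks the host's cap methylation. It was at 2.26, 1.48 and 1.62 FPKM in the control and 3.52, 3.03 and 2.45 FPKM with HYOU1 shRNA, without overlap, and was not called (0.73, adjusted p 0.0796). IFIT3, its partner, was at 2.42, 1.48 and 1.22 and 2.29, 3.15 and 2.71 FPKM, and control replicate 1 lay among the HYOU1 shRNA libraries (0.68, adjusted p 0.146). Both were called higher without control replicate 1, IFIT1 at 0.90 (adjusted p 0.00322) and IFIT3 at 0.95 (adjusted p 0.00277). IFIT5, the most abundant of the 4, was at 9.12, 5.76 and 5.86 FPKM in the control and 5.19, 5.42 and 5.61 FPKM with HYOU1 shRNA. Every HYOU1 shRNA library of IFIT5 lay below every control, the difference was -0.32 (adjusted p 0.321), and without control replicate 1 it was -0.10.

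IFITM1 rose, while its abundant neighbours on chromosome 11 were not called. The IFITM proteins sit in cell membranes and hinder the fusion of enveloped viruses. IFITM1 (ENSG00000185885, chr11:313506-315272) was at 1.52, 0.791 and 1.39 FPKM in the control and 3.98, 5.70 and 5.56 FPKM with HYOU1 shRNA. The groups did not overlap, and control replicate 2 was the lowest. The log2 difference was 1.99 (SE 0.277, adjusted p 0.0117), and the call was lost without HYOU1 shRNA replicate 1, 2 or 3 (adjusted p 0.0552, 0.0777 and 0.0781). IFITM1 shares 351 exon bases with IFITM2 on the same strand (32.5% of its own), so the authors' counting could have split or dropped reads between them.

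IFITM2 was at 55.3, 87.1 and 82.8 FPKM in the control and 90.9, 98.7 and 101 FPKM with HYOU1 shRNA, with control replicate 1 far below the rest. It was not called (0.39, adjusted p 0.207) and passed without control replicate 1 (0.19, adjusted p 0.0494). IFITM3, at 121, 197 and 199.9 FPKM in the control and 175, 193 and 203 FPKM with HYOU1 shRNA, was one of the most abundant members and its groups overlapped. Its difference was 0.17 (adjusted p 0.599), and -0.07 without control replicate 1.

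None of the 4 other RNA-binding or RNA-degrading effectors was called (limma; 1, ISG20, had an unadjusted p under 0.05). ADAR, the adenosine deaminase that edits double-stranded RNA and keeps it from MDA5, was at 43.3, 41.4 and 42.0 FPKM in the control and 38.2, 35.4 and 35.3 FPKM with HYOU1 shRNA. All 3 HYOU1 shRNA libraries lay below all controls, with a log2 difference of -0.22 (adjusted p 0.198). It was called lower without control replicate 1 (-0.20, adjusted p 0.0311). EIF2AK2, the kinase PKR that halts translation on double-stranded RNA, was at 10.6, 7.39 and 6.43 and 6.53, 6.02 and 6.08 FPKM and overlapped (adjusted p 0.268).

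ZC3HAV1 encodes ZAP, which targets CpG-rich viral RNA for decay. It was at 11.8, 8.89 and 8.15 FPKM in the control and 13.2, 11.6 and 12.1 FPKM with HYOU1 shRNA, with control replicate 1 among the HYOU1 shRNA libraries (adjusted p 0.185). The exonuclease gene ISG20 was at 0.493, 0.921 and 0.878 and 1.26, 1.43 and 1.68 FPKM without overlap (0.88, adjusted p 0.101). Both were called higher without control replicate 1, ZC3HAV1 at 0.52 (adjusted p 0.00157) and ISG20 at 0.63 (adjusted p 0.0391).

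TRIM21 rose among the TRIM proteins and components of nuclear PML bodies. TRIM21 (ENSG00000132109, chr11:4384897-4393696) is a ubiquitin ligase that binds antibody-coated particles in the cytosol. It was at 7.5, 10.2 and 12.0 FPKM in the control and 15.6, 18.0 and 19.4 FPKM with HYOU1 shRNA, without overlap and with control replicate 1 lowest. TRIM21 differed by 0.85 on the log2 scale (SE 0.197, adjusted p 0.0401). The call was lost without control replicate 2 (adjusted p 0.0968) or HYOU1 shRNA replicate 1, 2 or 3 (0.121, 0.157 and 0.167).

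PML and SP100, the core proteins of those bodies, also lay higher in all 3 HYOU1 shRNA libraries without being called. PML was at 2.02, 3.23 and 3.15 FPKM in the control and 4.29, 4.33 and 4.77 FPKM with HYOU1 shRNA (0.68, adjusted p 0.0780). SP100 was at 1.79, 1.26 and 0.963 and 2.28, 2.06 and 2.04 FPKM (0.67, adjusted p 0.116). Without control replicate 1 both were called, PML at 0.47 (adjusted p 0.0058) and SP100 at 0.89 (adjusted p 0.00366). TRIM25, a ubiquitin ligase described as an activator of RIG-I, was at 18.9, 20.4 and 18.8 FPKM in the control and 18.9, 19.1 and 19.4 FPKM with HYOU1 shRNA (-0.02, SE 0.105). TRIM22 had 11 to 22 fragments in the control and 17 to 24 with HYOU1 shRNA.

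None of the ADP-ribosylation genes was called (limma; 1, PARP9, had an unadjusted p under 0.05), and 3 of the 4 had a difference below 0. PARP9 and DTX3L encode partners of 1 complex and lie head to head on chromosome 3. PARP9 was at 3.49, 2.84 and 2.96 FPKM in the control and 2.10, 2.17 and 1.93 FPKM with HYOU1 shRNA, with every HYOU1 shRNA library below every control (-0.56, adjusted p 0.0593). It was called lower without control replicate 1 (-0.47, adjusted p 0.0155) and by voom (-0.58, adjusted p 0.0426). DTX3L was the most abundant of the 4, at 14.9, 10.3 and 9.56 and 11.8, 10.4 and 10.5 FPKM, and its groups overlapped (adjusted p 0.833). PARP14 was at 8.76, 6.50 and 5.25 and 5.52, 4.78 and 5.05 FPKM, also with overlap (-0.38, adjusted p 0.245). PARP12 lay above in all 3 HYOU1 shRNA libraries by a small margin, 8.58, 9.87 and 9.41 against 10.1, 9.96 and 11 FPKM (0.16, adjusted p 0.401).

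IFI44 and LGALS3BP rose among the remaining 10 members. IFI44 (ENSG00000137965, chr1:78649796-78664078), a cytoplasmic protein known mainly as an interferon-induced marker, was at 2.79, 1.73 and 1.29 FPKM in the control and 4.74, 5.24 and 4.32 FPKM with HYOU1 shRNA. The groups did not overlap, and control replicate 1 was the highest control. The log2 difference was 1.32 (SE 0.278, adjusted p 0.0312), and the call was kept without control replicate 1 and lost without any other single library (adjusted p 0.0515 to 0.137). LGALS3BP (ENSG00000108679, chr17:78971238-78980109) encodes a secreted glycoprotein that binds galectins. It was at 4.4, 5.52 and 6.76 FPKM in the control and 12.7, 11.8 and 12.4 FPKM with HYOU1 shRNA, without overlap. Its log2 difference was 1.15 (SE 0.174, adjusted p 0.0133), and the call was lost without control replicate 2 (adjusted p 0.0568) or HYOU1 shRNA replicate 1, 2 or 3 (0.084, 0.0808 and 0.0855).

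BST2, or tetherin, which holds budding virus at the cell surface, was the most abundant member at 145, 221 and 243 FPKM in the control and 223, 237 and 257 FPKM with HYOU1 shRNA. Its groups overlapped, and control replicate 1 was far below the other 5 (0.27, adjusted p 0.407). IFI6, a protein that protects against apoptosis, was at 30.1, 61.9 and 62.5 and 50.1, 52.1 and 53 FPKM. Its difference was 0.08 with all libraries and -0.27 without control replicate 1, when it was called lower (adjusted p 0.00641). IFI35 was at 9.18, 14.3 and 15.3 and 13.7, 15.8 and 14.7 FPKM and overlapped (adjusted p 0.509).

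SAMD9, an antiviral factor that restrains poxviruses and slows cell growth, had every HYOU1 shRNA library below every control. Its levels were 12.1, 6.02 and 6.06 FPKM in the control and 4.71, 4.62 and 4.32 FPKM with HYOU1 shRNA (-0.73, adjusted p 0.134). Without control replicate 1 the difference was -0.40 and it was called lower (adjusted p 0.00679). Its paralog and neighbour SAMD9L, below the filter, also had every HYOU1 shRNA library below every control, with 170, 87 and 79 fragments in the control and 61, 53 and 61 with HYOU1 shRNA (log2 difference -0.74 with the filter at 0.1 FPKM, adjusted p 0.241).

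**Figure D2:**
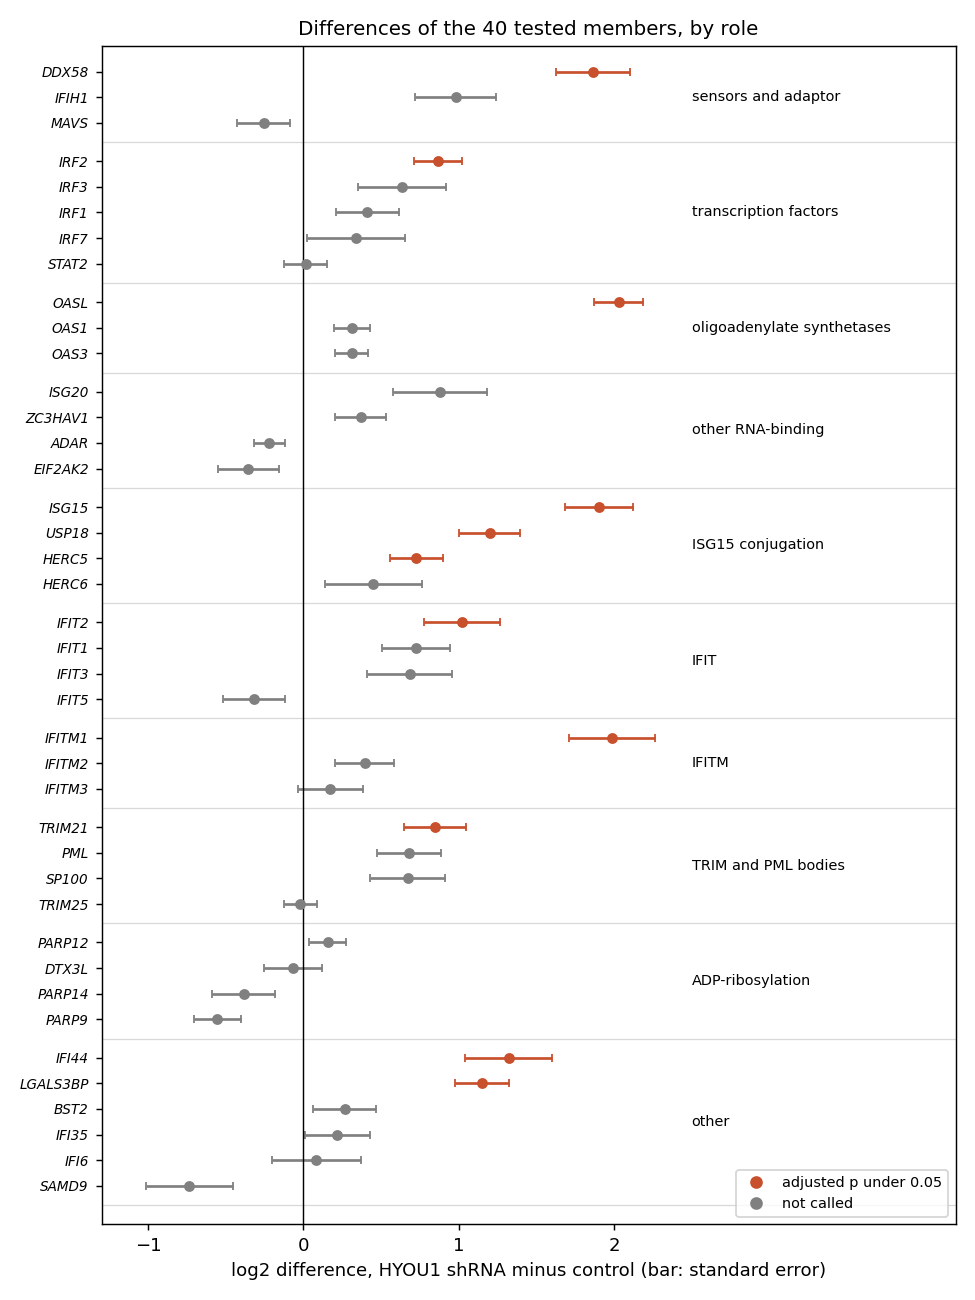
Log2 difference (HYOU1 shRNA minus control) of the 40 tested members with its standard error, grouped by role, with called members in colour. OASL, IFITM1, ISG15 and DDX58 lie between 1.86 and 2.03, and PARP9 and SAMD9 are the lowest at -0.56 and -0.73.

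Several classical markers of an interferon response were nearly silent in both groups. All 4 members among the antiviral GTPases and nucleotide enzymes were below 0.1 FPKM. MX1, which traps viral nucleocapsids, had 5, 4 and 10 fragments in the control and 13, 18 and 18 with HYOU1 shRNA, without overlap. MX2 had 0, 1 and 5 fragments and 16, 0 and 4, and CMPK2, a mitochondrial nucleotide kinase, had 3, 0 and 0 and then 1, 0 and 4. RSAD2 encodes viperin, which makes a chain-terminating nucleotide. It had 0, 0 and 2 fragments in the control and 0 in every HYOU1 shRNA library, where a count of 0 allows up to 0.0331 to 0.0364 FPKM over the 6 libraries. IFI44L, next to IFI44, had 4, 0 and 2 fragments in the control and 7, 18 and 4 with HYOU1 shRNA. XAF1 had 2, 0 and 0 and then 0, 3 and 0. IFI27 had 16, 44 and 28 fragments in the control and 42, 32 and 30 with HYOU1 shRNA, with overlap. With no filter on low levels none of the 13 was called (limma, lowest adjusted p 0.0977, DHX58, whose unadjusted p of 0.00615 was the only one under 0.05).

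**Figure D3:**
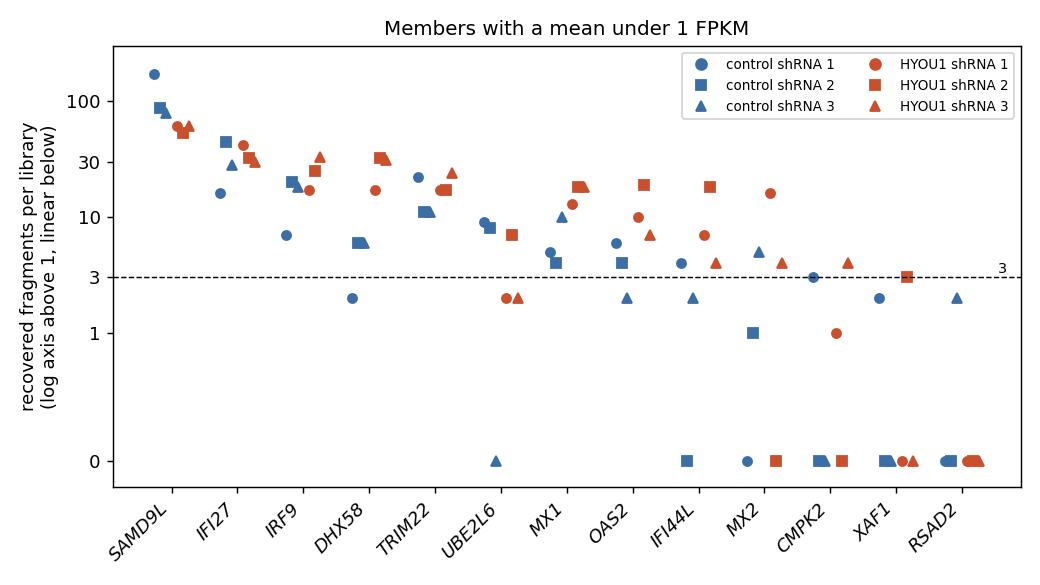
Recovered fragments in each library for the 13 members with a mean under 1 FPKM, on an axis that is linear below 1 and logarithmic above, with a dashed line at 3 fragments. DHX58, MX1 and OAS2 have all HYOU1 shRNA libraries above all controls, SAMD9L has them below, and RSAD2 and XAF1 stay at 3 fragments or fewer.

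Neighbouring members are given side by side. OAS1 and OAS3 had differences of 0.31 and 0.31, neither called. SAMD9 and SAMD9L had every HYOU1 shRNA library below every control. IFI44 rose beside IFI44L, which had at most 18 fragments, 3651 bases away. HERC5 and HERC6, 14006 bases apart, had differences of 0.73 (called) and 0.45 (not called), which were not tested against each other. MX1 and MX2 were both low, as were CMPK2 and RSAD2, whose gene bodies overlap. In the IFIT cluster IFIT2, IFIT3 and IFIT1 had differences of 1.02, 0.68 and 0.73, and IFIT5, at the far end, had -0.32.

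Other genes of the pathway were described from 3 lists. The list of interferon ligands, receptors and JAK-STAT genes held 26, of which 12 were tested, 6 with a difference above 0 and 6 below. Of these 2 rose and 0 fell, beside 6.6% and 5.66% of all tested genes (limma; 3 had an unadjusted p under 0.05). The third was SOCS3, at 23.8, 45.9 and 50.3 FPKM in the control and 18.6, 19.7 and 20.6 FPKM with HYOU1 shRNA. SOCS3 did not overlap between the groups and was not called (-0.95, adjusted p 0.0754). IFNB1 and IFNL1, the interferons that epithelial cells and hepatocytes make first, were listed at 0 in every library, and so were IFNA1, IFNK, IFNG, IFNL2 and IFNL3. IFNE, below the filter, had 2, 3 and 10 fragments in the control and 1, 1 and 0 with HYOU1 shRNA, without overlap. IFNA2 had 1 fragment in control replicate 1 and IFNW1 had 1 in HYOU1 shRNA replicate 2. For IFNB1 a count of 0 allows up to 0.186 to 0.205 FPKM. IFNLR1, the specific chain of the type III interferon receptor, rose from 1.45, 1.72 and 1.37 FPKM to 2.48, 2.61 and 2.83 FPKM (0.77, adjusted p 0.0306). IFNGR2, the signalling chain of the interferon-gamma receptor, rose from 17.1, 16.6 and 16.8 to 22.7, 21.9 and 22.5 FPKM (0.41, adjusted p 0.0470). IFNAR1, a chain of the type I receptor, was at 13.0, 10.4 and 8.66 FPKM in the control and 7.54, 8.64 and 8.61 FPKM with HYOU1 shRNA (-0.35, adjusted p 0.223). Without control replicate 1 this list held 5 calls of 12, beside 44.3% of all tested genes. Without any other single library it held 0 (limma; 3 or 4 at an unadjusted p under 0.05), beside 0.394% to 8.21% of all tested genes.

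Of 27 genes of sensor signalling, 21 were tested, 2 rose and 2 fell, close to the 6.6% and 5.66% over all tested genes. RNF125, a ubiquitin ligase that marks RIG-I for degradation, rose from 1.15, 0.853 and 0.676 to 1.79, 1.90 and 2.04 FPKM (1.04, adjusted p 0.0377). Its control mean was 0.894 FPKM, so it passed the filter only through the HYOU1 shRNA libraries. TNFAIP3, or A20, which limits NF-kB signalling, rose from 2.69, 2.63 and 3.22 to 5.26, 4.71 and 5.26 FPKM (0.82, adjusted p 0.0190). RNF135, a ubiquitin ligase that activates RIG-I, fell from 4.79, 4.99 and 5.77 to 2.70, 3.12 and 3.51 FPKM (-0.72, adjusted p 0.0324). SAMHD1, a nucleotide hydrolase, fell from 5.41, 4.31 and 3.97 to 2.43, 2.70 and 2.42 FPKM (-0.82, adjusted p 0.0264). The gene of the DNA-sensing adaptor STING, listed as TMEM173, was below the filter at 0.578, 0.818 and 0.970 FPKM in the control and 1.23, 1.00 and 1.28 FPKM with HYOU1 shRNA, without overlap. Without control replicate 1 the list held 12 calls of 21 (44.3% of all tested genes), and without control replicate 3 it held 2 (8.21%). Without control replicate 2 or any HYOU1 shRNA library it held 0 (limma; 6 to 8 at an unadjusted p under 0.05), beside 0.394% to 2.87% of all tested genes.

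Of 18 genes best known from interferon-gamma, 5 were tested, 3 rose and 1 fell, beside 6.6% and 5.66% of all tested genes. The guanylate-binding protein GBP2 rose from 1.16, 1.2 and 1.48 to 2.60, 2.72 and 2.64 FPKM (1.00, adjusted p 0.0157). ICAM1, an adhesion molecule that is also an NF-kB target, rose from 7.35, 10.8 and 11.6 to 16.1, 18.1 and 19.0 FPKM (0.86, adjusted p 0.0374). APOL2 rose from 5.08, 5.74 and 6.37 to 9.65, 9.23 and 9.14 FPKM (0.70, adjusted p 0.0223), and WARS, a tRNA synthetase, fell from 20.9, 20.0 and 20.0 to 11.6, 11.4 and 12.3 FPKM (-0.78, adjusted p 0.0104). The chemokine gene CXCL10 had 0 fragments in every control library and 4, 0 and 2 with HYOU1 shRNA. Also below the filter, GBP1, GBP3, IFI30 and APOL1 had every HYOU1 shRNA library above every control, and IDO1 had every one below. In group totals, control first, GBP1 had 17 and 113 fragments and IDO1 67 and 10. Without control replicate 2 only the fall of WARS was called (2.87% of all tested genes). Without HYOU1 shRNA replicate 1, 2 or 3 none was (limma; 4 at an unadjusted p under 0.05), beside 1.01%, 0.683% and 0.394% of all tested genes.

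The profile of control replicate 1 differed from the other controls along GC content, among the members as among all genes. Of the 20 tested members with the lower GC content, 18 were higher in control replicate 1 than in the mean of control replicates 2 and 3, with a median log2 deviation of 0.58. Of the 20 with the higher GC content, 2 were, with a median of -0.59. The correlation of the deviation with GC content was -0.89 over the 40 members and -0.71 over 12442 tested genes, points that share the same 3 libraries. Among the 40 tested members, IRF7, IFI6 and IRF3 had the lowest values in that library relative to the other controls, and SAMD9, HERC6 and IFI44 the highest. With a correction of each library for GC content, 21 members rose (52.5%) and 4 fell (10%), where 20.4% of all tested genes rose and 20.2% fell. The falls were ADAR, MAVS, PARP9 and SAMD9. All 11 members called higher with the uncorrected values were also called higher with the correction and without control replicate 1. The median difference of the members was 0.36 with the correction and 0.31 without that library. Its mitochondrial share of 7.59% was also the highest, and the part of RNA quality in these values was not tested.

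**Figure D4:**
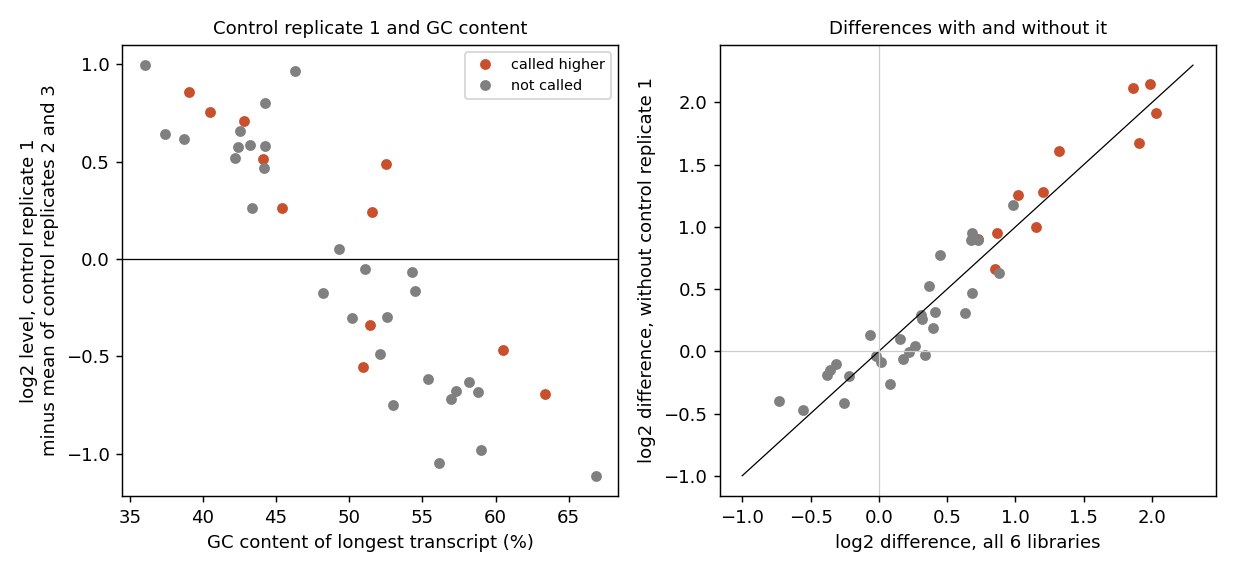
Left, the log2 deviation of control replicate 1 from the mean of control replicates 2 and 3 against the GC content of the longest transcript for the 40 tested members; right, the log2 difference without control replicate 1 against that with all 6 libraries. On the left 18 of the 20 members with lower GC content and 2 of the 20 with higher GC content lie above 0, and on the right the 11 called members stay at 0.66 or more without that library.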

How the data were processed

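RNA was measured in 6 Hep3B libraries, 3 with control shRNA and 3 with HYOU1 shRNA. Per the labels' protocols, libraries were made from mRNA selected on oligo(dT) beads. The authors deposited 1 table of FPKM values for 58735 genes. Aligner and counting tool: not given in the sources used here. Every one of the 58735 gene models matched GENCODE release 29 on GRCh38. FPKM times gene length gave whole multiples of 1 step per library (100% of values within 0.01 fragments), from which fragments were recovered.

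Values were transformed to log2(FPKM + 0.1), and the genes averaging 1 FPKM or more were tested. The test was lmFit followed by eBayes (trend, robust) in limma 3.58.1 under R 4.3.3. Tests were two-sided, with Benjamini-Hochberg adjustment over all 12448 tested genes and calls under 0.05. Every adjusted p in the text comes from limma. Differences on this scale understate changes of low genes. Counting used gene models that overlap in places, so overlapping genes are uncertain. The members, the lists and the tests were chosen with earlier results of these data known. All 53 members are accounted for by role. Called members, and the most abundant member of a role where it was not called, are given in every library. Up to 4 called genes with the largest change are named from each of the 3 pathway lists, with IFNB1, IFNL1, IFNAR1, STING1 and CXCL10 whatever their result; 1 further gene of that rule is not reported here.

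Alternatives were pseudocounts of 1 and 0.01, filters of 0.1 FPKM and none, quantile normalization, the replicate number as a block, a GC correction (lowess, span 0.3, GC content of the longest transcript, 6 tested genes without a value), both together, voom on the recovered fragments, and leaving out each library. Motifs and figures used Python 3.11.15, pandas 2.3.3, numpy 2.4.6 and matplotlib 3.10.9.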

Additional observations from a re-analysis of the deposited data

How the results depend on the processing

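Of the 11 members that rose, OASL was called under every alternative, and all 11 were called with either pseudocount, voom, the GC correction and without control replicate 1. HERC5, IFIT2 and TRIM21 were lost with the filter at 0.1 FPKM (8 rose, beside 3.85% of all genes tested), IFI44 also with no filter (7 called, beside 2.56%), and HERC5 with quantile normalization (10 rose, beside 5.97%). The GC correction called 25 members (beside 40.6%) and, with the replicate block, 24 (beside 36.2%); leaving out 1 library gave 1 to 28. Over all genes, 1526 called became 770 with no filter, 5048 with the GC correction, 4504 with the GC correction and replicate block, and 49 to 5518 without 1 library. The median member difference of 0.40 was 0.32 with a pseudocount of 1, 0.37 with no filter, 0.36 with quantile normalization, 0.36 with the GC correction with or without the block, and 0.31 to 0.48 without 1 library.

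Deviations of same-numbered libraries correlated at 0.125, -0.0933 and 0.170, and those of differently numbered libraries at -0.214 to 0.160. The deviations are taken from means of 3 libraries, so they cannot settle whether the replicate numbers pair the libraries. With the replicate block 9 members rose (HERC5 and IFIT2 lost, 4.22% of all genes rose). In that fit 940 genes were called (7.55%), the ligand and JAK-STAT list held 0 calls and sensor signalling 1.

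The ligand, receptor and JAK-STAT list held 1 call with the filter at 0.1 FPKM, 0 with no filter (limma; 3 genes at an unadjusted p under 0.05), 1 with voom and 0 to 5 without 1 library. Sensor signalling held 1 call with no filter, 11 of 21 tested with the GC correction with or without the block, and 0 to 12 without 1 library. The interferon-gamma list held 2 with no filter and 0 to 4 without 1 library. Over all genes tested, 6.99% were called with the filter at 0.1 FPKM, 2.56% with no filter and 14.5% with voom. The shares were 40.6% with the GC correction, 36.2% with the block added, and 0.394% to 44.3% without 1 library.

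Signs turned for 7 members that were not called with all libraries. With the GC correction, with or without the replicate block, DTX3L was at 0.0370, IFI35 at -0.0381, IFI6 at -0.0859, IFITM3 at -0.0194 and IRF7 at -0.191. With quantile normalization IFI6 was at -0.0199 and STAT2 at -0.0236. Without control replicate 1 the same 5 genes and STAT2 turned, as did STAT2 without HYOU1 shRNA replicate 3 and TRIM25 without control replicate 2. Without 1 library the range was -0.189 to 0.128 for DTX3L, -0.00936 to 0.357 for IFI35, -0.265 to 0.261 for IFI6, -0.0653 to 0.299 for IFITM3, -0.0316 to 0.549 for IRF7, -0.0850 to 0.0883 for STAT2 and -0.0398 to 0.0198 for TRIM25. The cause was not tested. Depth limits what can be said of the 7 members under 0.1 FPKM.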
